A study of Homo sapiens with 17 samples.

Results

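Ribosome footprints were set against mRNA in HEK293 cells, a human embryonic kidney line, 36 h after electroporation with catalytically dead Cas9 (dCas9). The nuclease was delivered as a complex with sgIntron, a guide RNA to an intron of JAK2, so these cells received the protein, the guide and the electric pulse but no DNA cut. The labels name 300 pmol of nuclease and 300 pmol of guide. The members are the 4 libraries of the series that are labelled dCas9 and 36 h, of 17 libraries in all: footprints of replicates d and e, and mRNA of replicates d and e. Each replicate was a plate of several pooled electroporations, whose lysate was divided between ribosome profiling and sequencing of rRNA-depleted total RNA, so a replicate letter stands for 1 lysate. No untreated cells are among the 4 libraries, and the ratios describe electroporated cells. The other samples drawn on are the 4 dCas9 libraries of 72 h, which received the same protein with an in vitro transcribed guide in place of a synthetic one. The 5 Cas9 libraries of 36 h, from cells given the cutting nuclease, entered only alternatives to the main fit.

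Ribosome profiling sequences the short stretches of mRNA that ribosomes shield from nuclease, and the number of such footprints on a coding region grows with the number of ribosomes on it. Divided by the abundance of the mRNA, it gives translational efficiency, a measure of how heavily each mRNA is loaded. An mRNA can be loaded poorly because initiation is held back, by upstream reading frames, by proteins bound near the cap or by a start that begins with a run of pyrimidines, and these controls are well known for stress factors, ferritins and ribosomal proteins. Throughout, the ratio is log2 of footprint counts scaled to library size (CPM) over mRNA CPM after TMM normalization, so that 0 is the loading of a typical gene and not 1 ribosome per mRNA. One transcript per gene was used, and ratios compare both library types over the same coding region.

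The identity of the cells was checked against markers. Of 8 genes listed as HEK293 markers, among them VIM and NEFL, 7 had at least 20 mRNA counts in both libraries, and PAX2 had 5 and 0. The markers of erythroleukemia cells, leukocytes and fibroblasts summed to at most 2.47, 0.725 and 11 CPM in an mRNA library, against 1068 and 1162 CPM for the HEK293 markers. Most of the latter was VIM alone, with 928 and 1008 CPM. Of the rest, NEFL had 60.9 and 59.7 CPM and KRT8 3.74 and 8.17, beside 9.57 and 4.78 for the fibroblast marker COL1A1. JAK2 itself had 140 and 232 mRNA counts and 9 and 0 footprint counts, too few for a test.

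Depth differed strongly between the footprint libraries. Over one transcript per gene, mRNA had 25095468 counts in lysate d and 30035884 in lysate e, while footprints had 4868580 and 689634, a 7.06-fold gap. Counts above 0 were found for 14781 genes in at least 1 library, and 9477 genes had a mean of at least 20 counts in both library types and were tested. In lysate e, 2112 of them (22.3%) had fewer than 10 footprints and 267 had none.

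The lysates ranked genes alike where counts were high. The difference of the log2 ratios between lysates had a standard deviation of 1.43 over all 9477 genes, but the median absolute difference was only 0.52, and the wide spread came from genes with few footprints in lysate e. With fewer than 10 such footprints the standard deviation was 2.15 (n = 2112 genes), with 30 to 100 it was 0.61 (n = 2820), and with 1000 or more it was 0.18 (n = 76). Counting error alone would have given 0.234 and 0.0395 in the last 2 classes, so replicate lysates differed by 2.62 and 4.55 times the counting error. Over the 1232 genes with at least 100 counts in both footprint libraries, the standard deviation was 0.38, the Pearson correlation between lysates was 0.93 and 86.0% of genes had the same sign. Over all tested genes the correlation was 0.52 (Spearman 0.63) and 74.3% had the same sign. Genes are not independent replicates, and these values describe the points only.

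**Figure D1:**
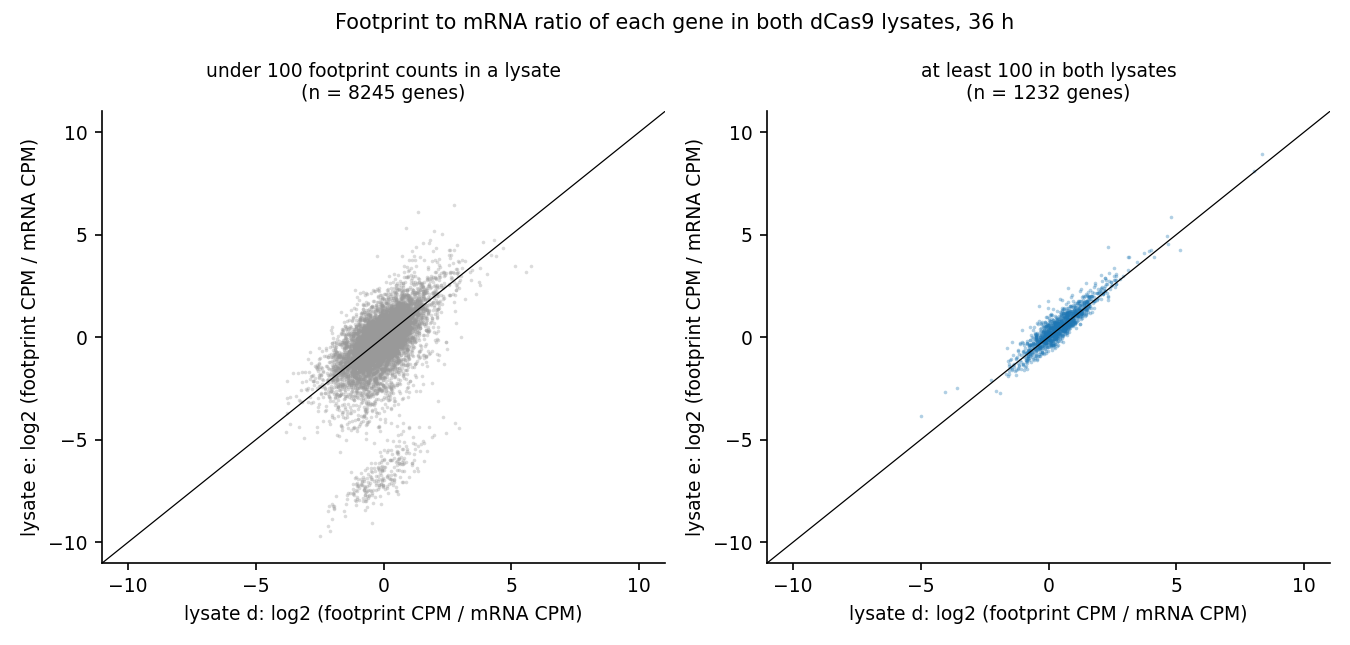
Log2 ratio of footprint CPM to mRNA CPM of each tested gene in lysate d (horizontal) and lysate e (vertical), with the line of equality. Genes with at least 100 footprint counts in both lysates (right, n = 1232) lie close to the line, while the other genes (left) scatter, and the 267 genes without a footprint in lysate e form the separate cloud at the bottom.

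Across the tested genes, the fitted ratio ran from -1.51 at the 5th percentile to 1.56 at the 95th, a range of 8.45-fold, with a median of -0.02. In edgeR's quasi-likelihood test of footprints against mRNA, 1643 genes were above the typical loading (17.3% of those tested) and 1761 below (18.6%) at an adjusted p of 0.1, together 3404 or 35.9%. Of these, 962 were more than 2-fold higher and 1117 more than 2-fold lower, and a further 375 genes differed by more than 2-fold without passing. The share that passed was 61.0% among genes with at least 100 counts in both footprint libraries and 23.1% among those with fewer than 10 in lysate e. The counts of called members in the gene lists below are to be read against these shares. The zero point depended on the scaling. With library totals in place of TMM the median of all genes moved to -0.14, and 1292 genes were higher and 2075 lower. Without the mRNA of lysate d, 1136 genes passed, and without that of lysate e, 1109. Without the footprints of lysate d or e, where the spread is then estimated from the mRNA pair, 4884 and 5256 passed.

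**Figure D2:**
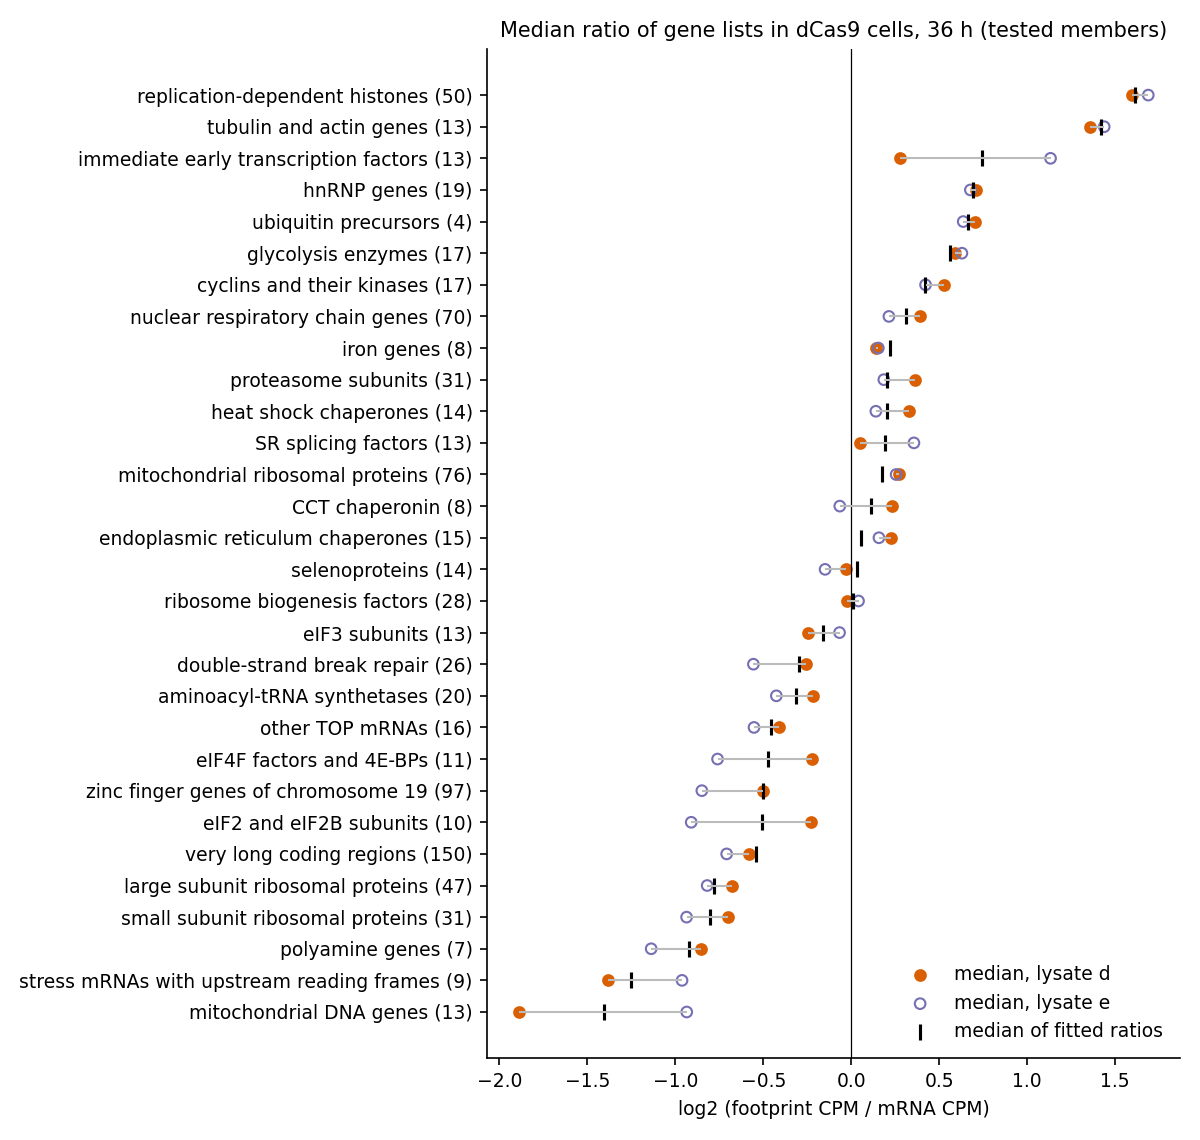
Median log2 ratio of the tested members of each gene list (number in brackets) in lysate d (filled), in lysate e (open) and from the fit (black tick). Histones and tubulin and actin genes stand at the top, with fitted medians of 1.62 and 1.42, and polyamine genes, stress mRNAs with upstream reading frames and genes of mitochondrial DNA at the bottom, with -0.92, -1.25 and -1.41.

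Ribosomal protein mRNAs were loaded below the typical gene. They are the best known mRNAs with a terminal oligopyrimidine (TOP) start, a C at the cap followed by pyrimidines, through which their translation follows growth signals. Annotated starts are shown because the tract defines the class. They are those of 3 ribosomal protein mRNAs with the tract there, 1 without it and 3 other TOP mRNAs. Each stretch holds 10 bases before and 15 bases from the start annotated by RefSeq (GRCh38.p14), and capitals mark the pyrimidine run that begins at the start.
RPS12 (chr6:132814559-132814583, plus strand): cggatgaggcCTCTTTCCCTgccgc
RPS6 (chr9:19380222-19380246, minus strand): gaagttggccCTCTTTTCCgtggcg
RPL28 (chr19:55385922-55385946, plus strand): cctcgccttcCTCTTTCCgtctcag
RPS15 (chr19:1438386-1438410, plus strand): aggcgcggacCaaagcgatctcttc
EEF1A1 (chr6:73521018-73521042, minus strand): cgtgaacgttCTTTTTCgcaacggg
EEF2 (chr19:3985449-3985473, minus strand): cgtcagcgttCTCTTCCgccgtcgt
TPT1 (chr13:45341169-45341193, minus strand): ctgagtcggcCTTTTCCgcccgctc
Of the 63 tested ribosomal protein genes with an annotated start, 47 (74.6%) had a C followed by at least 4 pyrimidines there, against 4.07% of all 35116 annotated starts and 7.92% of the 7743 tested genes with an annotated start.

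Of 31 tested proteins of the small subunit, 23 were lower and 4 higher, with a median ratio of -0.81 (-0.70 in lysate d and -0.94 in lysate e). Of 47 of the large subunit, 29 were lower and 2 higher, with a median of -0.78 (-0.68 and -0.82). The shares of all tested genes were 18.6% lower and 17.3% higher. Taken as one sum, the ribosomal proteins made up 12.6% and 14.1% of the mRNA counts and 7.36% and 7.59% of the footprint counts. RPS12 had 928 and 1143 mRNA CPM but 221 and 183 footprint CPM, a ratio of -2.33 ± 0.18 (SE, n = 2 lysates, adjusted p = 4.11e-05). RPL12, a protein of the large subunit, had a ratio of -2.26 and RPS2, of the small subunit, of -2.18. RPS6, the substrate of S6 kinase, had a ratio of -1.72. At the other end, RPS15 had 1290 and 1349 mRNA CPM and 3005 and 3892 footprint CPM, a ratio of 1.38 ± 0.16 (adjusted p = 3.97e-04), and RPL28 had a ratio of 1.17, with a start that carries a full pyrimidine run. FAU, RPS28, RPS26 and RPL15 were the other members called higher, with ratios from 0.40 to 0.80. Near-identical copies of these genes are common. Of the 78 tested, 4 shared fewer than 25% of their 28-base windows with genes at other loci, so the ratios of the others are uncertain to the extent that reads were counted on a copy. Those 4 had a median of -0.33, nearer to the typical gene than the -0.79 of all 78.

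The 16 other mRNAs listed as TOP mRNAs divided in the same way, with 8 lower, 1 higher and a median of -0.46 (-0.41 and -0.55). The 4 of them that shared fewer than 25% of their windows had a median of -0.09. EEF1A1, the factor that brings tRNA to the ribosome, was the most abundant of them, with 14197 and 15135 mRNA CPM and 5565 and 6100 footprint CPM, a ratio of -1.33 ± 0.15. It shared 98.9% of its 28-base windows with genes at other loci. TPT1 was lowest at -1.95 ± 0.19, followed by EEF1G at -1.52. EEF2, the translocation factor, had 7128 and 6868 mRNA CPM and 6376 and 7594 footprint CPM, a ratio of -0.00 ± 0.15 with a start of the same kind as EEF1A1. PABPC1, the poly(A) binding protein, was at 0.00 ± 0.15. VIM was higher at 1.23 ± 0.16. Ribosomal protein genes with the tract at their annotated start had a median of -0.70 and those without it there -0.79. The split rests on the annotated start alone, and the RPS15 stretch shown above holds a pyrimidine run further downstream. Whether mRNAs in the group without the tract begin elsewhere was not examined. The comparison therefore cannot show whether the tract goes with the ratio. Of the 16 other TOP mRNAs, 10 had an annotated start and 8 of these had the tract there. These 8 had a median of -0.73 (-0.66 in lysate d and -0.80 in lysate e), with 5 lower and none higher. Those without it had -0.14, with 1 lower and 1 higher, and this difference was not tested. Over all tested genes other than ribosomal proteins, the 566 with a TOP start had a median of -0.05, against -0.02 for those without. Of the 566, 109 were lower and 93 higher.

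Stress mRNAs with upstream reading frames had the lowest loading of the nuclear lists. In unstressed cells ribosomes translate the short upstream frames of these mRNAs and rarely reach the coding region, which is the basis of their induction when initiation slows. Upstream frames that end within the 5′ leader are shown for 4 of these and related mRNAs, as read from the counted transcript (GENCODE 44, hg38), with the first and last codon in capitals.
ATF4 (chr22:39521325-39521342, plus strand): ATGggagttggcttcTGA
PPP1R15B (chr1:204411664-204411690, minus strand): ATGgtgttgaagcgtcgagccgacTAG
IFRD1 (chr7:112423218-112423244, plus strand): ATGtgtgtaattcctcccagtattTGA
AMD1 (chr6:110874796-110874816, plus strand): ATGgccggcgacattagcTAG
In ATF4, the transcription factor at the centre of the integrated stress response, the leader holds 7 upstream ATGs. The frame shown opens at base 762, behind ATGs at bases 695 and 734 whose frames do not end before the coding region. Frames from bases 23, 85, 184 and 483 also end within the leader and are not shown.

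Of the 9 tested members, 6 were lower and none higher, against 18.6% lower over all tested genes, with a median of -1.25 (-1.38 in lysate d and -0.96 in lysate e). ATF4 had 556 and 635 mRNA CPM and 67.3 and 111 footprint CPM. Its ratio was -3.04 in lysate d and -2.51 in lysate e, and -2.85 ± 0.23 in the fit (adjusted p = 6.04e-05), a 7.23-fold lower loading than the typical gene. ATF4 shared 67.3% of its 28-base windows with genes at other loci, and reads counted on a copy could enter this ratio. PPP1R15A, which directs the phosphatase that ends the stress response, had a ratio of -2.42 in lysate d and -0.67 in lysate e, on 26 footprints, and -1.68 ± 0.45 in the fit. Its constitutive relative PPP1R15B had -1.39 and -0.96. IBTK, an adaptor of a ubiquitin ligase, was at -1.68. IFRD1, a coregulator of transcription, had -1.38 and -1.14, and EIF5, the initiation factor whose own leader carries upstream frames, had -1.01 and -1.69. Without the mRNA of lysate d, PPP1R15A and IFRD1 no longer passed, with ratios of -1.44 and -1.08 (edgeR adjusted p = 0.20 and 0.49), and the same held without that of lysate e (-1.53 and -1.44, adjusted p = 0.16 and 0.27). BCL2L11, CEBPA and CEBPB lay between -0.26 and 0.54 and did not pass.

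Members with the fewest footprints were not tested, so the list's median leaves them out. SLC35A4, the mRNA of a solute carrier whose leader holds a long upstream frame, had 827 and 1038 mRNA counts but 4 and 4 footprint counts on its coding region. Because lysate e was shallower, these counts are 0.844 and 6.36 footprint CPM, on 31.5 and 34.2 mRNA CPM, so the lysates differed widely. With no count minimum the ratio of SLC35A4 was -4.17 (edgeR adjusted p = 7.08e-09), which rests on these few footprints. ATF5 had 176 and 187 mRNA counts with 6 and 0 footprints, and DDIT3, the CHOP transcription factor, 197 and 428 with 12 and 0. Of other factors that follow the stress response, XBP1 had a ratio of -1.73 ± 0.33 and SQSTM1, an autophagy receptor, 0.46 ± 0.17 (adjusted p = 0.083). With library totals in place of TMM, SQSTM1 had 0.32 and did not pass (edgeR adjusted p = 0.21). XBP1 did not pass without the mRNA of lysate d or e (adjusted p = 0.20 and 0.16), and SQSTM1 passed in neither of these (0.51 and 0.58) nor without the footprints of lysate d (0.11).

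The ferritin mRNAs were poorly loaded, to nearly the same extent in both lysates. Both carry an iron responsive element near the cap, a hairpin that iron regulatory proteins bind when iron is scarce to stop initiation. The loop region is shown from the counted transcripts, with the loop in capitals.
FTH1 (chr11:61967573-61967602, minus strand): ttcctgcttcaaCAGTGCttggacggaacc
FTL (chr19:48965335-48965364, plus strand): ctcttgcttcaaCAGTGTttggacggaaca
FTL, the light chain, had 397 and 449 mRNA CPM and 113 and 129 footprint CPM, a ratio of -1.81 and -1.80 in the lysates and -1.83 ± 0.17 in the fit (adjusted p = 1.35e-04). FTH1, the heavy chain, had -1.45 and -1.46. FTH1 and FTL shared 92.0% and 64.5% of their 28-base windows with genes at other loci. Both ratios are therefore uncertain to the extent that reads were counted on a copy, which agreement between lysates does not address. Transcripts were searched for a C, any 5 bases and the loop CAGTGN, with 5 base pairs closing the loop (G with T allowed, the sense strand only, last base not G). It was found in the leader of 7 of 8850 tested genes (0.0791%). Among these, FTL, FTH1 and ADAR were lower, and PRPF18, ZBTB14 and ASCC1 did not pass. The other iron genes were not low. TFRC, the transferrin receptor, whose elements lie behind the coding region, had -0.00 and -0.46 and did not pass, while the iron regulatory proteins ACO1 and IREB2 were higher at 0.62 and 0.60.

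Polyamine synthesis is kept in balance by several translational switches, among them a frameshift in the antizymes and the short frame of AMD1 shown above. Of the 7 tested genes 5 were lower, against 18.6% of all tested genes, with a median of -0.92 (-0.86 and -1.14). OAZ1, the antizyme, had 966 and 1130 mRNA CPM and 339 and 514 footprint CPM, a ratio of -1.33 ± 0.20. SMS was at -1.11, AZIN1, the antizyme inhibitor, at -1.0, ODC1, ornithine decarboxylase, at -0.92 and AMD1, which makes the aminopropyl donor, at -0.89 ± 0.18. Without the mRNA of lysate d or e, AZIN1 (adjusted p = 0.49 and 0.35) and AMD1 (0.10 and 0.12) missed the threshold. SRM, spermidine synthase, had 0.13 and did not pass. Among 14 selenoproteins, which read a UGA codon as selenocysteine, 4 were lower and 2 higher and the median was 0.03. Of all tested genes, 18.6% were lower and 17.3% higher. The glutathione peroxidases GPX4 and GPX1 were lowest, at -1.95 ± 0.20 and -1.01 ± 0.20.

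Genes that encode ubiquitin differed widely. RPS27A makes ubiquitin fused to a ribosomal protein, and UBB makes a chain of ubiquitin repeats. RPS27A had 972 and 1166 mRNA CPM and 484 and 476 footprint CPM, a ratio of -1.15 ± 0.15 (adjusted p = 7.03e-04). UBB had 1316 and 1494 mRNA CPM and 5031 and 5648 footprint CPM, a ratio of 1.93 ± 0.15. RPS27A was below the typical gene and UBB above it in both lysates. RPS27A and UBB shared 97.3% and 79.1% of their 28-base windows with genes at other loci. Of the other ribosomal proteins, RPS10 was at -1.19, RPL22 at -1.35 and RPL10A at -0.54, the last not passing without the mRNA of lysate e (-0.46, adjusted p = 0.23).

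**Figure D3:**
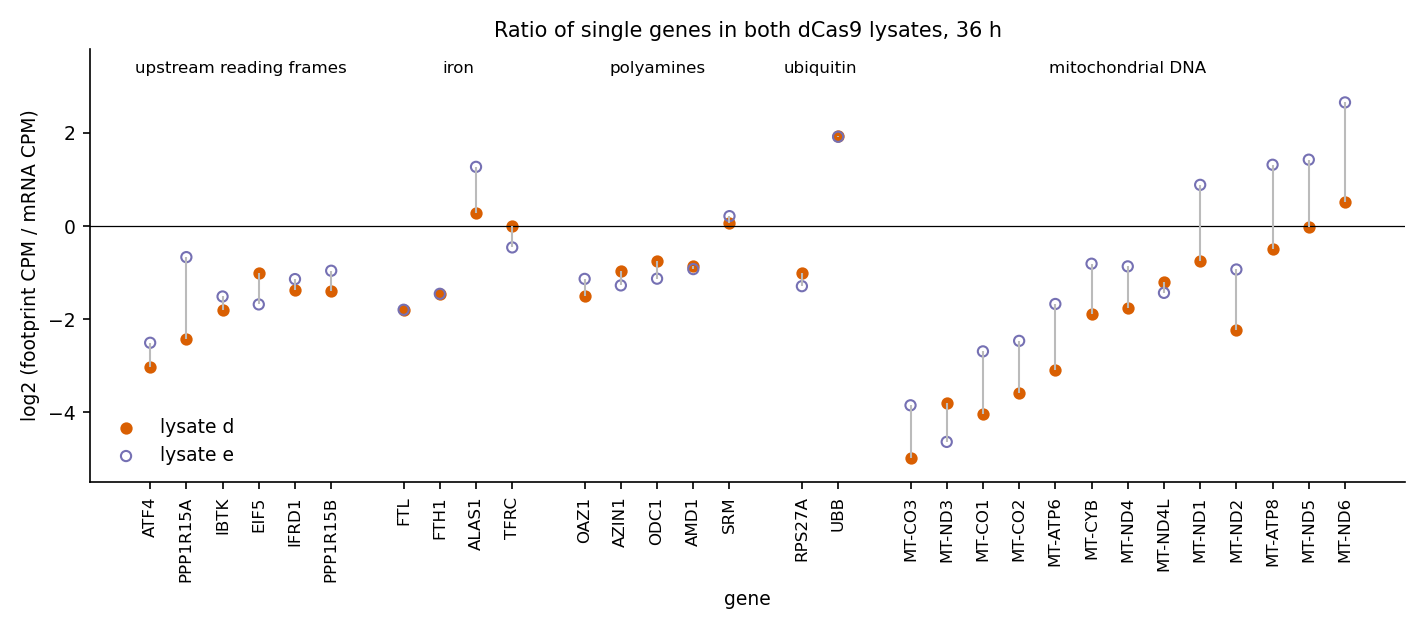
Log2 ratio of footprint CPM to mRNA CPM of single genes in lysate d (filled) and lysate e (open), by group. FTL, FTH1 and UBB have nearly the same value in both lysates, PPP1R15A differs by more than 1, and most genes of mitochondrial DNA are higher in lysate e.

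Genes of mitochondrial DNA had the lowest list median and the poorest agreement. They are translated by the ribosomes of the mitochondrion, not by those of the cytosol. Their share of the counts was 1.63% and 1.41% in mRNA and 0.122% and 0.233% in footprints. Of the 13 genes 9 were lower, and MT-ND6, the one encoded on the light strand, was higher, with a median of -1.89 in lysate d and -0.94 in lysate e. MT-CO1, a subunit of cytochrome c oxidase, had 7791 and 6906 mRNA CPM and 473 and 1066 footprint CPM, a ratio of -4.04 in lysate d and -2.70 in lysate e. MT-CO3 was lowest at -4.44 ± 0.31 and MT-ND3 followed at -3.95 ± 0.26. In 11 of the 13 genes lysate e was above lysate d, and the median gene differed by 1.30 between lysates against 0.52 over all genes. MT-ND6 had 0.51 and 2.66, 1.77 ± 0.68 in the fit, and lost its call without the mRNA of lysate d or e and without the footprints of lysate e (0.53, adjusted p = 0.36). The 70 nuclear genes of the respiratory chain, which cytosolic ribosomes translate, had a median of 0.31 with 27 higher and 6 lower, from UQCRH at -1.4 to ATP5F1D at 2.21. The mitochondrial ribosomal proteins had a median of 0.18 over 76 genes, with 19 higher and 5 lower. For all these lists the shares of all tested genes were 17.3% higher and 18.6% lower.

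Replication-dependent histones stood at the other end. Their mRNAs end in a stem loop in place of a poly(A) tail and are made in S phase, and they were measured here because the RNA was depleted of rRNA rather than selected by poly(A). All 50 tested members were higher, against 17.3% of all tested genes, with a median of 1.62 (1.59 and 1.69) and the lowest, H4C3, at 0.71 ± 0.16. Summed over the family, histones had 23411 and 28368 mRNA CPM and 70613 and 84955 footprint CPM, a ratio of 1.59 in lysate d and 1.58 in lysate e. H3C15, a gene of histone H3, had 1260 and 1439 mRNA CPM and 7451 and 9772 footprint CPM, a ratio of 2.67 ± 0.18 (adjusted p = 2.59e-05). It shared 100% of its 28-base windows with other loci. H4C3 did not pass without the mRNA of lysate d (0.53, adjusted p = 0.18). The other 6 listed histone genes were under the count minimum. The 26 members that shared fewer than 25% of their 28-base windows with other loci had a median of 1.62 as well. These 26 include H2BC14, H2BC3 and H4C13, which shared 20.5%, 17.1% and 6.38%. Genes that share sequence with them had 1146, 2346 and 1479 times their mRNA counts. The limit of 25% therefore does not set aside members beside far more abundant copies, and the part of copies in this median was not tested.

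Tubulin and actin genes were higher in 12 of 13 cases, against 17.3% of all tested genes, with a median of 1.42 (1.36 and 1.44). Only 2 of the 13 shared fewer than 25% of their 28-base windows with other loci, and these had a median of 3.26. They include TUBA4A, at 4.52 on 2.63 and 4.05 mRNA CPM, while the alpha tubulin genes summed had 1.08 and 1.03. The limit of 25% therefore does not set aside members of families with far more abundant genes. The part of copies in this median was not tested. The ratios of the members that shared more windows are uncertain to the extent that reads were counted on a copy. The major alpha tubulins TUBA1B, TUBA1C and TUBA1A had ratios of 0.79, 1.25 and 1.26, and the beta tubulins ran from 1.33 for TUBB to 2.52 for TUBB3. TUBG1, the gamma tubulin of the centrosome, had 0.28 ± 0.16 and did not pass. ACTG1, cytoplasmic gamma actin, had 3052 and 2951 mRNA CPM and 7342 and 8709 footprint CPM, a ratio of 1.42 ± 0.15, and ACTB was not analysed here. Of 17 glycolysis enzymes 12 were higher and none lower, against 17.3% and 18.6% of all tested genes, with a median of 0.56 (0.59 and 0.63). ALDOA, aldolase, had 1.14, PGAM1 1.20, GAPDH 0.51 ± 0.14 and ENO1 0.38 ± 0.15, while LDHB, HK1 and PFKM lay between -0.13 and 0.09. With library totals in place of TMM, ENO1 had 0.24 and did not pass (edgeR adjusted p = 0.14). ENO1 missed the threshold without the mRNA of either lysate (adjusted p = 0.43 and 0.18) and without the footprints of lysate e (0.29), and GAPDH did so without the mRNA of lysate d (0.21).

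Of 13 tested immediate early transcription factors 6 were higher and none lower, with a median of 0.74 (0.28 and 1.13), against 17.3% higher and 18.6% lower over all tested genes. The other 9 listed members, among them FOS, EGR1 and NR4A1, were under the count minimum. MYC had 287 and 279 mRNA CPM and 480 and 465 footprint CPM, a ratio of 0.74 in both lysates. JUN was at 1.23 ± 0.18 and IER5 at 1.78 ± 0.27. Of 17 cyclins and their kinases 8 were higher and 2 lower, with a median of 0.42. CCND2 was at 1.44 and CDK1 at 1.29, and CDKN2C was lowest at -0.82, while CDKN1A, the p21 inhibitor, had 1.91 and did not pass. Of 19 hnRNP genes, which package nascent RNA, 12 were higher and 2 lower, with a median of 0.69, and HNRNPD was highest at 2.65 ± 0.19. The ubiquitin ligase MDM2 was at -0.78 ± 0.25 and its relative MDM4 at -2.16 ± 0.42. MDM2, MDM4 and CDKN2C missed the threshold without the mRNA of lysate d (adjusted p = 0.31, 0.21 and 0.35) and without that of lysate e (0.30, 0.11 and 0.58).

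Of 26 tested genes of double-strand break repair 7 were lower and none higher, against 18.6% lower and 17.3% higher over all tested genes. The share called lower was not far from the background, while 22 of the 26 ratios were below 0 and 4 above. The median was -0.30 (-0.26 and -0.56), and the lower ones included PALB2, POLQ, RBBP8, ATM, EXO1 and BRCA1, from -2.04 to -0.76. PALB2 missed the threshold without the mRNA of lysate e (adjusted p = 0.17). Of 20 aminoacyl-tRNA synthetases 7 were lower and 1, VARS1, was higher, with a median of -0.32. VARS1 missed the threshold without the mRNA of lysate e (0.77, adjusted p = 0.16). Among initiation factors, 2 of 13 eIF3 subunits, 4 of 11 genes of eIF4F and its binding proteins and 4 of 10 genes of eIF2 and eIF2B were lower, with medians of -0.16, -0.48 and -0.51, and EIF2S1, the subunit that stress kinases phosphorylate, was the only higher one among the 3 lists at 0.76 ± 0.20. It did not pass without the mRNA of lysate d or e (adjusted p = 0.32 and 0.16). Proteasome subunits had 11 of 31 higher and 3 lower (median 0.21), heat shock chaperones 5 of 14 higher (0.20), endoplasmic reticulum chaperones 4 of 15 higher and 1 lower (0.06), CCT chaperonin subunits 1 of 8 each way (0.11), SR splicing factors 6 of 13 higher (0.19) and ribosome biogenesis factors 4 of 28 higher and 5 lower (0.01). The background was 17.3% higher and 18.6% lower, and the shares in the eIF3, CCT and ribosome biogenesis lists lay below it. HSPA1A, the inducible heat shock protein, had a ratio of 1.55 and its near-identical neighbour HSPA1B of 1.54, on almost the same counts. Of 97 tested zinc finger genes of chromosome 19, 23 were lower and 8 higher (median -0.50), but 249 were listed, so most missed the count minimum.

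Genes with more upstream ATGs had lower ratios. Among genes with an annotated leader of at least 20 bases, the 5133 without an ATG in it had a median ratio of 0.14, the 1715 with 1 had -0.16, the 814 with 2 had -0.39, the 670 with 3 or 4 had -0.44 and the 518 with 5 or more had -0.54. The share called lower was 12.0% without an upstream ATG and 35.1% with 5 or more, and the share called higher was 22.6% and 5.98%. The difference was also present among leaders of similar length. In leaders of 200 to 400 bases, the 762 genes without an ATG had a median of 0.24 and the 1380 with 1 or more had -0.34. In leaders under 100 bases the medians were 0.12 (n = 2682) and -0.21 (n = 402). In lysate e the class with 3 or 4 upstream ATGs was the lowest of the classes by number, at -0.64 against -0.57 for 5 or more, and in lysate d the order of these classes was as in the fit. The base 3 positions before the start codon, which is usually a purine, went with smaller differences, with medians of -0.01 for A, 0.01 for G, -0.13 for C and -0.13 for T.

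Coding length and base composition also moved with loading. Genes with 80 to 180 counted codons had a median of 0.35 (n = 1052), those with 480 to 980 had -0.12 (n = 3001) and those in the longest class had -0.51 (n = 154). Of 150 tested genes in the list of coding regions of 2500 codons or more, 68 were lower and 11 higher. The rank correlation with counted codons was -0.29 in lysate d and -0.17 in lysate e over 9477 genes. Coding regions with under 40% GC had a median of -0.10 (n = 538), those with 40 to 45% had -0.24, those with 45 to 50% had -0.28 and those with 60% or more had 0.41 (n = 2061), so the median was lowest in the middle classes. This relation differed between the lysates. The rank correlation with GC content was 0.18 in lysate d and 0.32 in lysate e over 9452 genes, and genes under 40% GC had a median of 0.01 in lysate d and -0.45 in lysate e. Lengths, base composition and upstream ATGs are related to each other, and their separate parts in the ratio were not tested.

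**Figure D4:**
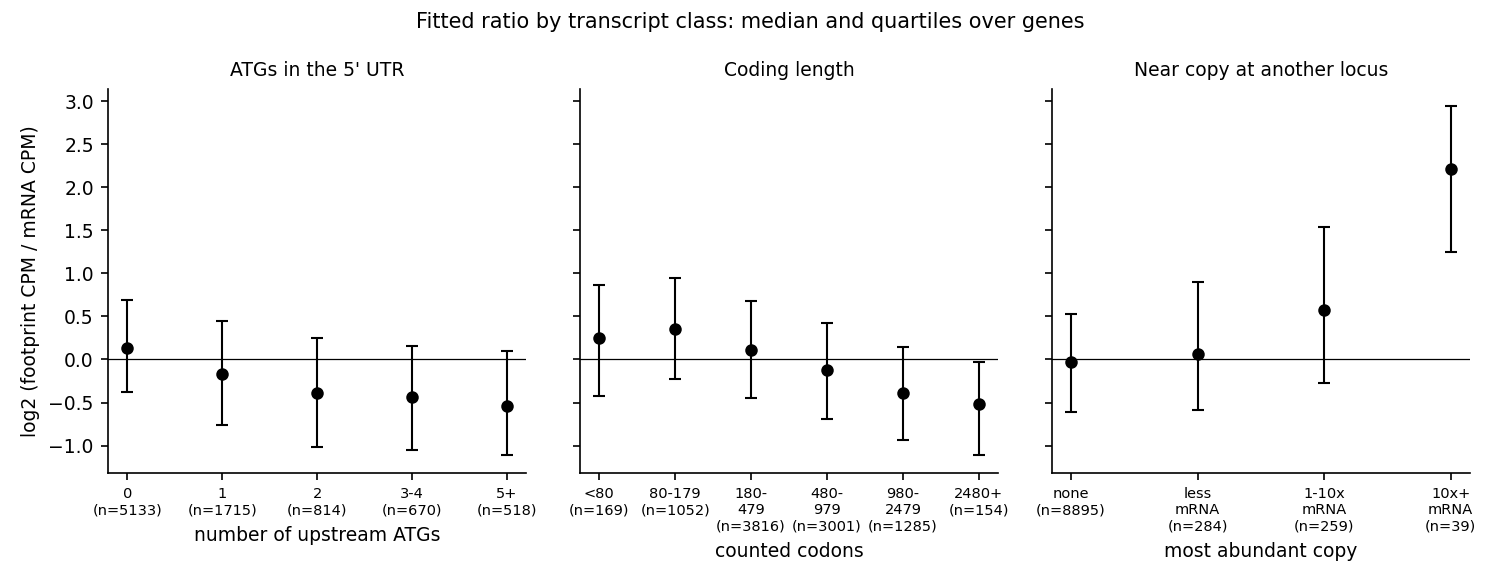
Fitted log2 ratio of footprint CPM to mRNA CPM by class of transcript, as the median (point) and quartiles (bars) over the genes of each class. The median falls from 0.14 to -0.54 with the number of upstream ATGs (left) and from 0.35 to -0.51 with coding length above 80 codons (middle), and is 2.21 for 39 genes with a near copy at another locus that has at least 10 times their mRNA (right).

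Genes with a more abundant near copy were common among the highest single ratios. For each gene, the most abundant gene at another locus that holds at least 5% of its 20-base windows was taken as its copy. The 8895 genes without one had a median of -0.03, the 259 whose copy had 1 to 10 times their own mRNA counts had 0.58, and the 39 whose copy had 10 times or more had 2.21, 30 of them called higher. A gene's own mRNA enters both the class and the ratio, so part of this order is fixed by the classes, and the fifth of genes with the least mRNA per codon had a median of 0.25. The part of copies in these ratios was not tested. Of the 12 highest genes 7 had a copy with at least 10 times their mRNA. H2BC14 had 1.8 and 1.4 mRNA CPM and 608 and 738 footprint CPM, a ratio of 8.74 ± 0.24, and H2BC3 had 8.26 ± 0.29, while H2BC18, which shares sequence with both, had 1146 and 2346 times their mRNA counts. All H2B genes summed had a ratio of 1.75 in lysate d and 1.77 in lysate e. ACTA1, skeletal muscle actin, was at 5.38 ± 0.30, with ACTG1 at 301 times its mRNA counts. POTEF, whose end is a copy of actin, was at 4.77, H4C9 at 4.70, H2BC10 at 4.6 and H4C13 at 4.24. H4C13 did not pass without the mRNA of lysate d (3.58, adjusted p = 0.12). LDOC1, NRGN, ENO3 and TUBA4A had no copy by this rule and ratios of 4.31, 4.63, 4.28 and 4.52, on 1.2 to 4.2 mRNA CPM. ENO3 and TUBA4A belong to families with abundant members, and the enolase genes summed had ratios of 0.42 and 0.44, the alpha tubulin genes 1.08 and 1.03.

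Among the 12 lowest ratios, 2 were in genes with a copy, against 582 of 9477 tested genes. Apart from the 3 mitochondrial genes above they were DZIP1 at -3.85, B4GALT2, a galactosyltransferase, at -3.80, GPBP1L1 at -3.58, DENND5A at -3.56, SNX25, a sorting nexin, at -3.46, GTF3A, the factor that starts transcription of 5S rRNA genes, at -3.44, NBPF12 at -3.41, ANKRD36 at -3.27 and LRP3 at -3.25. DZIP1 had 106 and 122 mRNA CPM and 8.2 and 6.4 footprint CPM, and DENND5A had 201 and 212 mRNA CPM and 14.6 and 27 footprint CPM. The counted transcripts of GPBP1L1, NBPF12 and B4GALT2 had 19, 16 and 11 upstream ATGs, those of GTF3A and ANKRD36 none.

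Among the 10 genes with the most footprints were HSPA1A, HSPA1B, H3C15, H3C14, ACTG1, EEF2, EEF1A1, H2AC19 and ENO1. They encode heat shock proteins, histones, actin, elongation factors and a glycolytic enzyme. Of these, EEF1A1 was lower, EEF2 did not pass and the others were higher. The 5 genes with at least 100 footprints in both lysates whose ratio differed most between them were ZFHX3 (2.31 in lysate d and 4.41 in lysate e), NEFL (-0.39 and 1.5), WIZ (-0.03 and 1.77), SLC7A1 (0.78 and 2.41) and MT-ND5 (-0.01 and 1.43). Each was higher in lysate e, the shallower footprint library. The minimum of 100 counts bears mostly on lysate e and so favours genes that are high there. The shared direction is therefore in part set by this choice of genes.

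At 72 h the ratios of dCas9 cells were close to those of 36 h. Over 9379 genes measured at both times the Pearson correlation was 0.87 (Spearman 0.85), and 98.0% of the 3369 genes called at 36 h had the same sign at 72 h. In the test of the difference between times 26 genes passed at an adjusted p of 0.1 (0.277% of 9379), 5 higher at 36 h (0.0533%) and 21 lower (0.224%), and 897 had an unadjusted p under 0.05. The difference was under 1 for 96.1% of genes. Without 1 library the count ran from 10 to 1879, the latter without the footprints of lysate d at 36 h. Of the 26 genes 15 had a near copy at another locus (57.7%, against 6.13% of all genes tested). Reads were aligned with a different program and annotation at 72 h, and the guide and the libraries' depth differed as well, so the time after electroporation and these cannot be told apart.

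PPIAL4E, PPIAL4D and PPIAL4F are copies of cyclophilin A, and POTEF and ACTA2 share sequence with actins. PPIAL4E had 20.1 and 3.19 footprint CPM at 36 h and 294 and 273 at 72 h, with 11.5, 12.9, 4.57 and 3.77 mRNA CPM, a difference in ratio of -5.64 ± 0.41. POTEF had a ratio of 4.77 at 36 h and 7.92 at 72 h. RPS16 went from -0.54 and -0.43 in the lysates of 36 h to 1.52, and its mRNA was lower at 72 h (253 and 394 CPM against 1104 and 1257) and its footprints were not (891 and 924 CPM against 767 and 931). ZFHX3, a large homeobox protein, had the largest difference of the 5 genes that were higher at 36 h, with ratios of 2.31 and 4.41 at 36 h against -0.12 at 72 h. It missed the threshold without any 1 of the mRNA libraries of either time or of the footprint libraries of 72 h (edgeR adjusted p from 0.11 to 0.21). MT-CO2, MT-ATP6 and MT-ND4L differed by -2.14, -2.38 and -2.11, and the median of the 5 mitochondrial genes measured at both times was 0.95 at 72 h. Medians at 72 h were -0.78 for ribosomal proteins, 1.57 for histones, 1.58 for tubulin and actin genes, -1.41 for the stress mRNAs and -0.94 for polyamine genes, close to those of 36 h. Other lists differed more. Iron genes had 0.22 at 36 h and -0.13 at 72 h, aminoacyl-tRNA synthetases -0.32 and -0.01, genes of eIF4F -0.48 and -0.10, zinc finger genes of chromosome 19 -0.50 and -0.87, and SR factors 0.19 and 0.51. These differences between list medians were not tested.

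**Figure D5:**
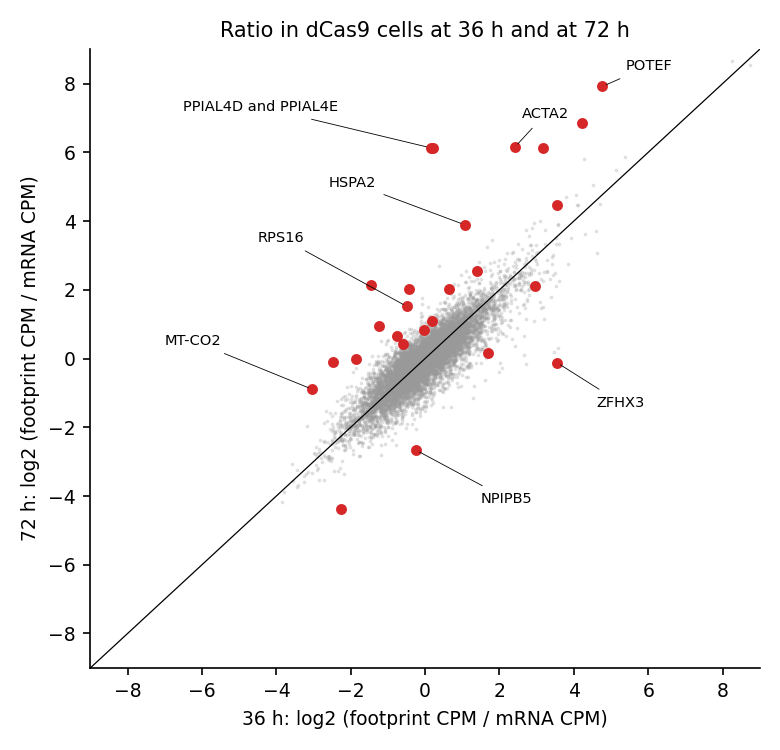
Fitted log2 ratio of footprint CPM to mRNA CPM at 36 h (horizontal) and 72 h (vertical) for 9379 genes in dCas9 cells, with the line of equality. The 26 genes that passed the test of the difference are drawn in red and 21 of them lie above the line, among them POTEF, ACTA2 and the PPIAL4 genes.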

How the data were processed

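HEK293 libraries were analysed from the deposited raw counts per transcript, which the authors made from 50-base reads with HISAT2 2.1.0 on GRCh38 and GENCODE 22 (36 h) or with another aligner and GENCODE 25 (72 h). Most coding regions were counted without 20 codons at their ends, so footprints in upstream frames are not included. A read could count on several transcripts or near copies. Of 26679 transcripts listed, 25338 matched GENCODE 44, and 1 transcript was kept per gene. Testing required an average of 20 or more counts among the footprint libraries and among the mRNA libraries, which removes genes with few footprints. Footprints were compared with mRNA by edgeR 4.0.16 (quasi-likelihood, TMM, Benjamini-Hochberg adjusted p under 0.1, R 4.3.3) over the 4 libraries. Errors are SE of the fit, and log2 CPM used a prior count of 2. The 2 lysates per library type are the replicates, and nothing more is stated on their independence. Lysates pair the libraries by the study's methods (correlation of their deviations 0.0076), and the fit without the block is reported. The test was checked on simulated data. Alternatives were DESeq2 1.42.0, limma 3.58.1, other scalings, filters and choices of transcript, a fit with all libraries of 36 h, Cas9 included, and leaving out each library.

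Members, gene lists and named genes were chosen with earlier results of these data known. Named genes were fixed names, the 12 highest and lowest ratios, the 10 with most footprints, the 5 with the largest lysate difference, list extremes, and 5 each way between times. Other list members and the summed enolases were named after their values were seen. Results for some genes are not reported here.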

Additional observations from a re-analysis of the deposited data

Results flagged for a closer look

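The ratio of footprints to mRNA differed between 36 h and 72 h for 26 genes in edgeR's test of the difference. Higher at 36 h were ZFHX3 by 3.68 on the log2 scale, NPIPB5 by 2.50, NBPF10 by 2.03, ENSG00000273734 by 1.56 and H2BC6 by 0.89. Without the mRNA of lysate e at 36 h none of these 5 passed (adjusted p = 0.21, 0.24, 0.33, 0.51 and 0.33), and each lost its call without at least 2 other single libraries too. Among the lower ones were PPIAL4D at -5.67, PPIAL4E at -5.64, ACTA2 at -3.75, POTEF at -3.12 and PPIAL4F at -2.87. Aligner, annotation and guide differed between the times and cannot be told apart from time.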

How the results depend on the processing

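The 3404 genes called at 36 h became 2875 with the replicate block, 2885 with DESeq2 and 4981 with limma voom. Leaving out 1 library gave 1109 to 5256. The standard deviation of the lysate difference was 0.38 with at least 100 footprint counts in both lysates. For 36 h against 72 h, the 26 genes became 21 with the replicate block, 124 with DESeq2 and 44 with no count minimum, and leaving out 1 library gave 10 to 1879. It gave 11 without the mRNA of lysate e and 448 without its footprints at 36 h, and at 72 h 16 without mRNA a, 10 without footprints e and 13 without footprints f. The cause was not tested. Of the 105 named genes called at 36 h, 32 lost the call in at least 1 alternative, 7 of them other than by leaving out a library, and none changed sign. The block ended the call of CDKN2C, MT-ND6, SELENOI and SQSTM1 (adjusted p = 0.10, 0.12, 0.19 and 0.16), and between times of NBPF10 and ENSG00000273734 (0.20 and 0.12). Library totals in place of TMM ended the call of CCT8, ENO1, MT-ND6, SELENOI and SQSTM1. Their edgeR adjusted p was then 0.15, 0.14, 0.11, 0.12 and 0.21. The median kept its sign in 29 of 34 lists in every alternative. Depth of the footprints of lysate e limits genes with few footprints.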
